A study of Caenorhabditis elegans with 205 samples.

Results

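The neuropeptide receptor genes of Caenorhabditis elegans were taken from a count table of sorted neurons by their WormBase symbols. A gene was a member when its symbol was npr, frpr, dmsr, nmur, ckr, tkr, gnrr or sprr followed by a number, and 97 of the 46927 genes in the table qualified. There were 43 npr, 20 frpr, 16 dmsr, 7 gnrr, 3 nmur, 3 tkr, 3 sprr and 2 ckr genes. The rule used names and no measured value.

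The series held bulk RNA-seq libraries of neurons from 53 anatomically named classes purified by fluorescence-activated cell sorting. All worms were untreated and were raised on 8P agar with the E. coli strain NA22. Cells went straight into Trizol, and libraries were built with the SoLo Ovation kit. Strain, genotype, age, sex and the reporter that marked each class are not given in the sources used here. Neither is whether the libraries of a class came from separate cultures. The p-values for single classes and pairs of classes therefore measure the spread between these libraries. Those for neuron types measure the spread between class means. Groups were the classes, with 2 libraries in 3 classes, 3 in 14, 4 in 27, 5 in 5 and 6 in 4.

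Neuropeptides are short secreted peptides that act over a distance, and nearly all of their receptors are membrane proteins that signal through G proteins. In the worm the npr genes include relatives of mammalian neuropeptide Y, somatostatin and opioid receptors, the frpr genes are named for FMRFamide-like peptides and the dmsr genes for the Drosophila myosuppressin receptor. The nmur, ckr, tkr, gnrr and sprr genes are related to receptors for neuromedin U, cholecystokinin, tachykinin, gonadotropin-releasing hormone and the Drosophila sex peptide. They tune feeding, egg laying, arousal, sleep and sensory learning, and many have no ligand assigned with certainty.

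Total counts ran from 798303 to 24647021 per library, with a median of 4692492. Levels are given in CPM, counts scaled to 1e+06 per library after adjustment by trimmed mean of M values (TMM). The abundance of different genes is ranked per kilobase of exon. Numbers of classes or receptors at 10 CPM, summed receptor CPM and values of receptors beside ligand genes are not corrected for gene length. A count of 3 was worth 0.643 CPM in the median library and up to 6.37 CPM in others. A library's level below its own value of 3 counts is given as measured but cannot be told from 0, a limit that covers counting error only. Of 42 classes with a listed marker, all 42 were called higher for it than the other classes, and the class ranked first in 30. The lowest ranks were 10 for lin-11 in VC and odr-2 in AVG. Next were 8 for flp-22 in SMD, 6 for ser-2 in OLL and 5 for unc-25 in DVB. The ASK marker sra-9 ranked first at 6.71 CPM, with 1.21 CPM in its lowest library. No marker was listed for AIM, AIN, AVE, AVH, I5, LUA, PHA, PVC, PVP, RMD and SMB, so these classes were not checked in this way. Summed CPM of marker genes of muscle, gut, skin, germline, glia, pharynx and coelomocytes ran from 300.2 to 40852, and the sum of the pan-neuronal genes from 355.4 to 54320. The pan-neuronal list was rab-3, unc-104, egl-3, egl-21, sbt-1, ric-4, snb-1, unc-31 and ric-19. The 7 classes whose labels lack a kit description (CEP, DVB, HSN, PVP, PVQ, RME and SIA) have no library of the form used for the other 46, so label form and class cannot be told apart.

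The share of receptors that differed among the neuron classes was near that of all genes. All 95 members that passed the filter on low counts differed among the 53 classes by edgeR's quasi-likelihood F-test (Benjamini-Hochberg adjusted p under 0.05), in a table where 95.5% of the 20427 tested genes did. Tested against the mean of the other 52 classes, members were called higher in 1020 of 5035 receptor and class combinations, which is 20.3% against 11.4% over all genes. They were called lower in 514, which is 10.2% against 3.05% over all genes. Against all other libraries taken as 1 group, limma-voom called 481 higher, or 9.55% against 3.93% of all genes, and 83 lower, or 1.65% against 0.974%. The 2 members not tested were dmsr-12 and dmsr-15, whose highest class means were 0.651 CPM in PHA and 0.512 CPM in PVD. Highest levels were spread over the classes: 29 classes were the highest for at least 1 receptor, and over 4656 pairs of members the median correlation of log2(CPM + 1) across the 53 class means was 0.109, with 11 pairs above 0.7. That correlation is a description, since all points share the same libraries.

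**Figure D1:**
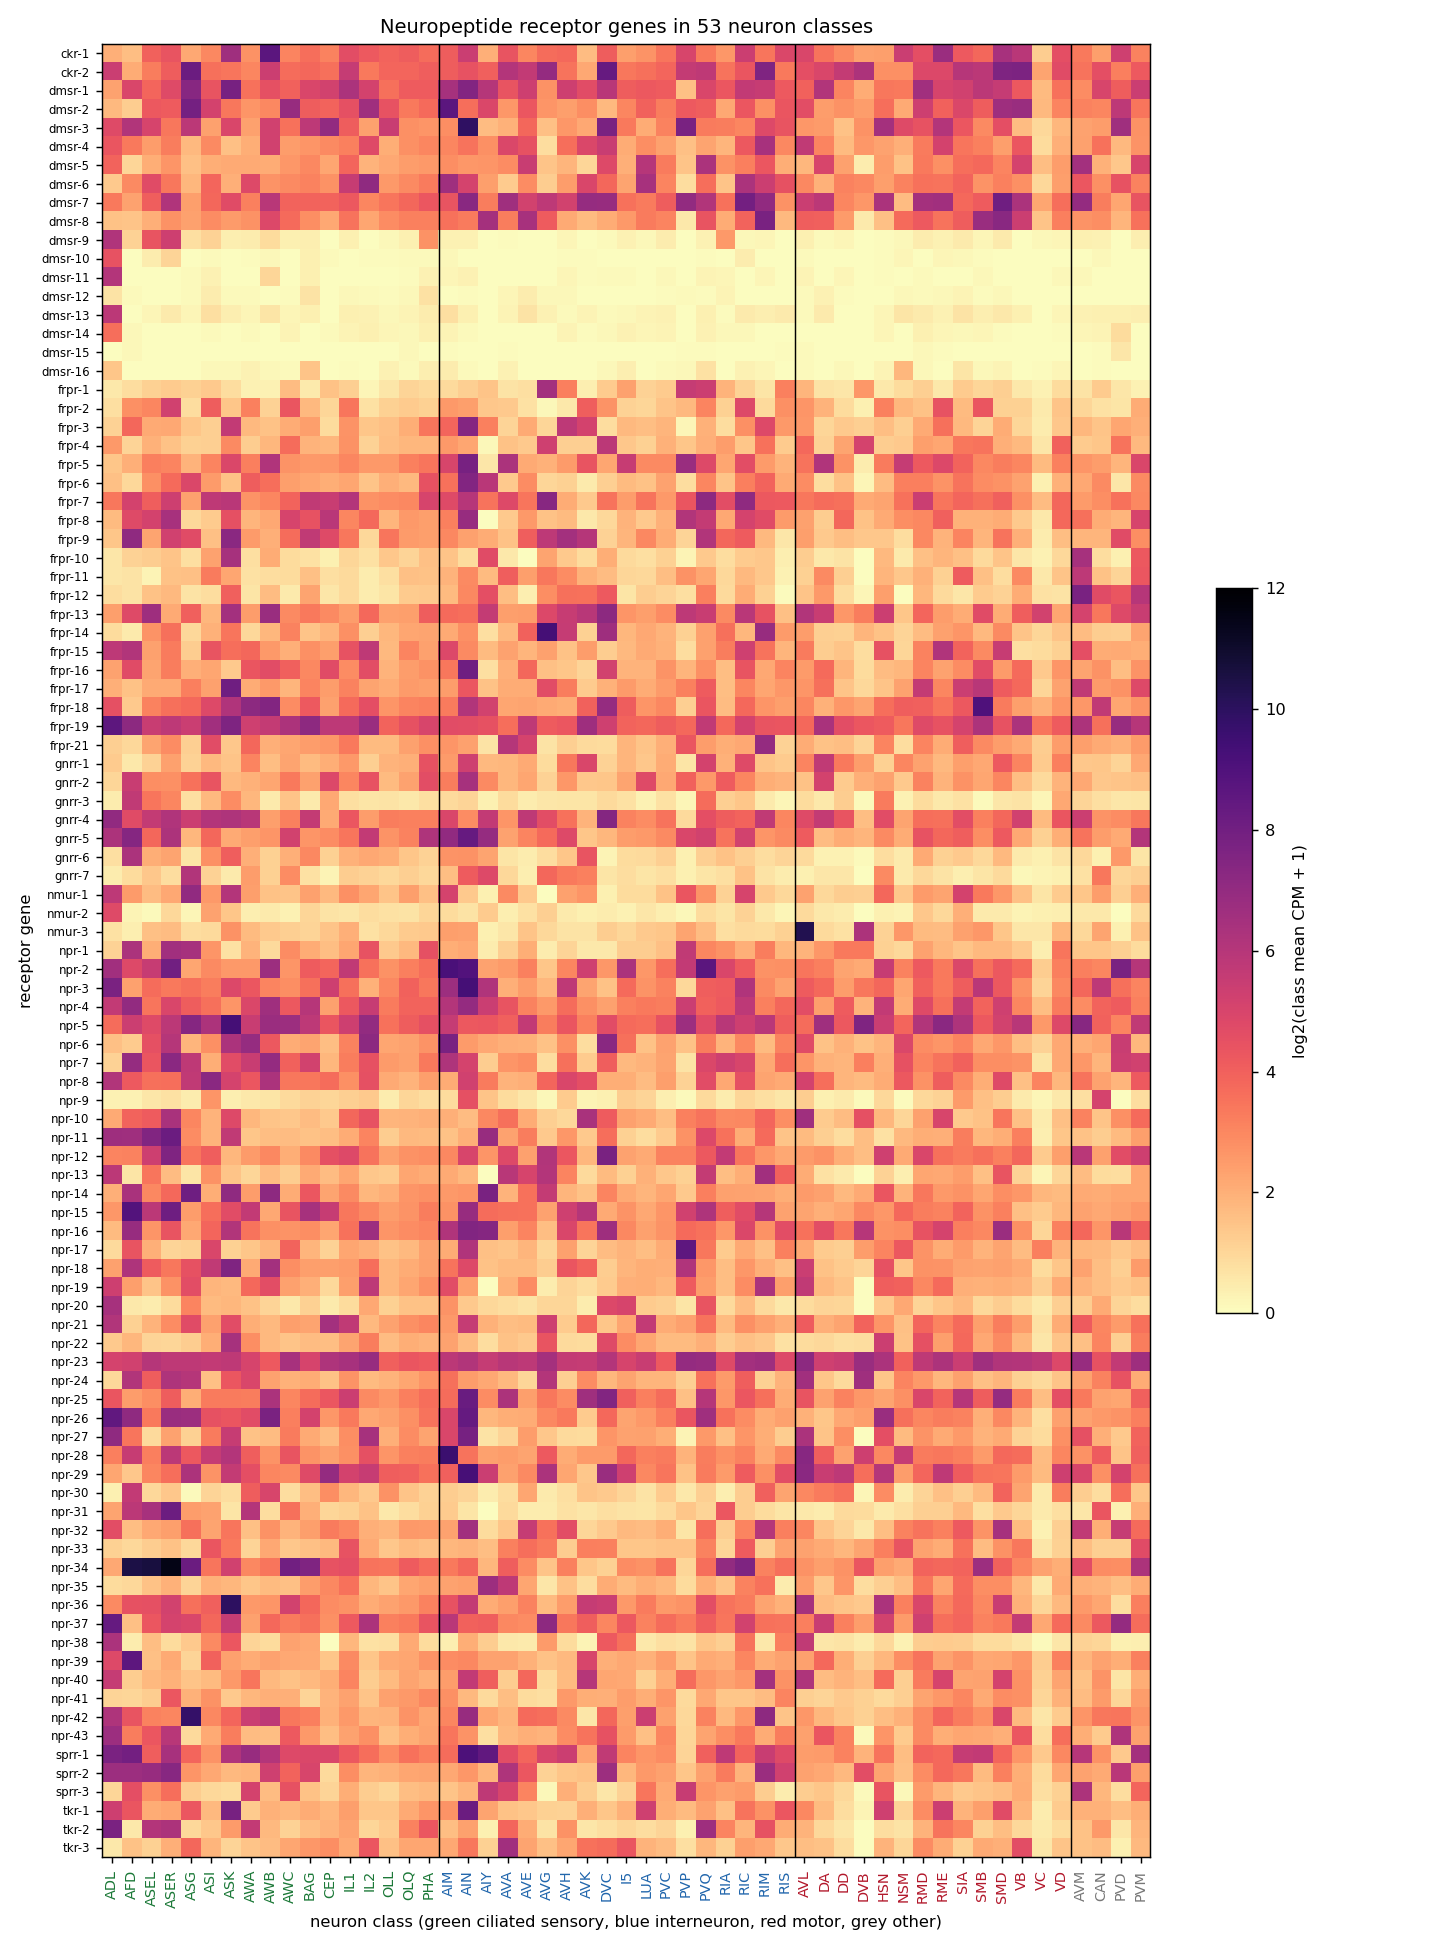
Class mean level of the 97 receptors, as log2(class mean CPM + 1), with a receptor in each row and a neuron class in each column, grouped as ciliated sensory, interneuron, motor and other. The row of npr-23 is dark throughout, the rows of dmsr-10 to dmsr-16 are nearly empty outside ADL, and the column of VC is pale.

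The broadest receptor was npr-23 (WBGene00021328, WBcel235 I:1062293-1065297). Its class mean reached 10 CPM in all 53 classes, from 14.5 CPM in NSM to 145.2 ± 68.6 (SD, n = 3) in AVL. In AVL its libraries read 77.1, 144.1 and 214.3 CPM, and overlapped those of other classes. The next broadest were frpr-19 with 51 classes at 10 CPM, npr-5 with 49, dmsr-1 with 44 and ckr-2 with 41. The median member reached 10 CPM in 12 classes. By the same measure 12 members were found in 1 to 3 classes, 29 in 4 to 10, 34 in 11 to 25 and 14 in 26 to 40, while 3 (dmsr-12, dmsr-15 and dmsr-16) reached it in none. Averaged over classes and per kilobase, npr-34 was the most abundant at 72.4 CPM per kilobase, and the family medians ran from 4.4 in gnrr to 20.7 in ckr.

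Receptors were unevenly spread over the neurons. The interneuron AIN had 49 receptors with a class mean of at least 10 CPM, the taste and pheromone neuron ASK had 46, and ASER had 45. The command interneuron PVC had 11, the motor neuron DD had 10 and the vulval motor neuron VC had 2, which were npr-23 and frpr-13. The median class had 28. Summed over the 97 receptors, AIN libraries held 4041 to 12581 CPM, those of ASER 3333 to 8777, and those of VC 176.3 to 266 (n = 6), with every VC library below every AIN and ASER library.

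**Figure D2:**
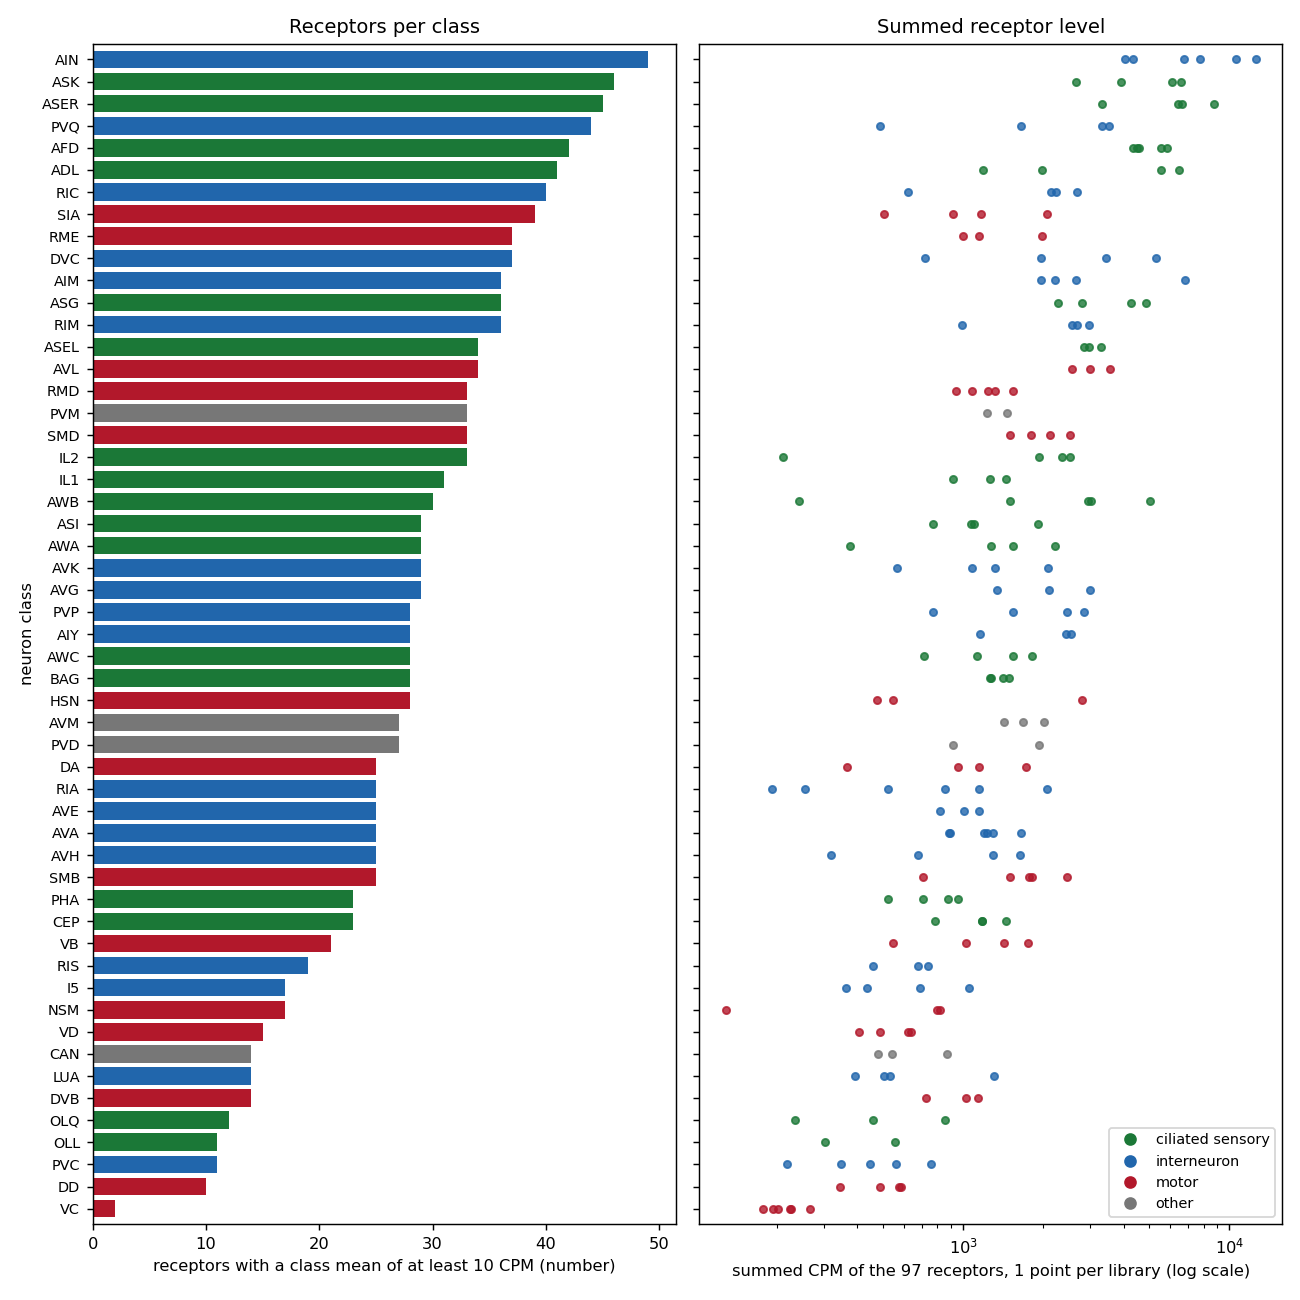
Number of receptors with a class mean of at least 10 CPM (left, bars, from 2 in VC to 49 in AIN) and the summed CPM of all 97 receptors in each library (right, 1 point per library, log scale). Bars and points are coloured by neuron type, and libraries of a class differ by up to several fold in their sum.

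In the class contrasts, ASK had 46 of 95 tested receptors called higher than the other classes, against 18.9% of all genes there. AIN had 45, against 13.8% of all genes. At the other end VC had 68 of 95 receptors called lower, against 9.92% of all genes. DVB had 34 called lower, against 9.73%, and PVP had 31, against 5.87%. The fewest called higher were 1 in OLQ, against 5.97% of all genes there, and 2 each in OLL, VC and PVC, against 15.9%, 20.3% and 22.1% of all genes. By limma-voom OLQ and PVC had 0, against 3.47% and 16.1% of all genes.

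The receptor sum moved with the sum of the pan-neuronal genes. In 47 of 53 classes the library lowest in pan-neuronal genes was also the lowest in receptors, and in 39 the highest matched. The correlation over class means was 0.73 on the log2 scale, and -0.51 with the non-neuronal sum. In ADL the libraries with 2249 and 3677 CPM of pan-neuronal genes held 1191 and 1975 CPM of receptors, and those with 13686 and 15107 CPM held 5510 and 6479. Set against pan-neuronal genes, the receptor sum was 13.8% ± 2.59 (SD, n = 6) in VC, 4.49% ± 0.613 (n = 3) in DVB, 43.6% ± 12.6 (n = 6) in AIN and 60.9% ± 16.4 (n = 5) in AFD. DVB was the lowest class and AFD the highest. Also below VC were AVL at 7.78%, AVK at 8.26%, RIC at 8.74%, CEP at 9.45% and BAG at 10.2%, while CAN was at 58.8%. Whether the pan-neuronal genes are even across classes was not tested, so a low ratio may lie in either sum. VC libraries held 1227 to 1758 CPM of pan-neuronal genes, which is low, while DVB libraries held 18935 to 24644. The part of sort purity in the class differences was not tested. Here, too, fewer cells of a class in a sort and less RNA per cell cannot be told apart.

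For 13 receptors 1 class stood clear of the whole table, in that its lowest library exceeded the highest library found anywhere else and was not under 10 CPM. That is 13.7% of the 95 tested members, and 6.21% of all tested genes met the same rule. The count was 28 without the third library of each class, 24 without the first and 20 without the fourth, where fewer libraries have to stand clear, against 9.97%, 9.76% and 7.27% of all genes. These 13 are described by their values, and a fold change given for them is the edgeR estimate of the class against the mean of the others. The receptors were chosen on these same libraries, so a p-value of that contrast would add no support and is not given.

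**Figure D3:**
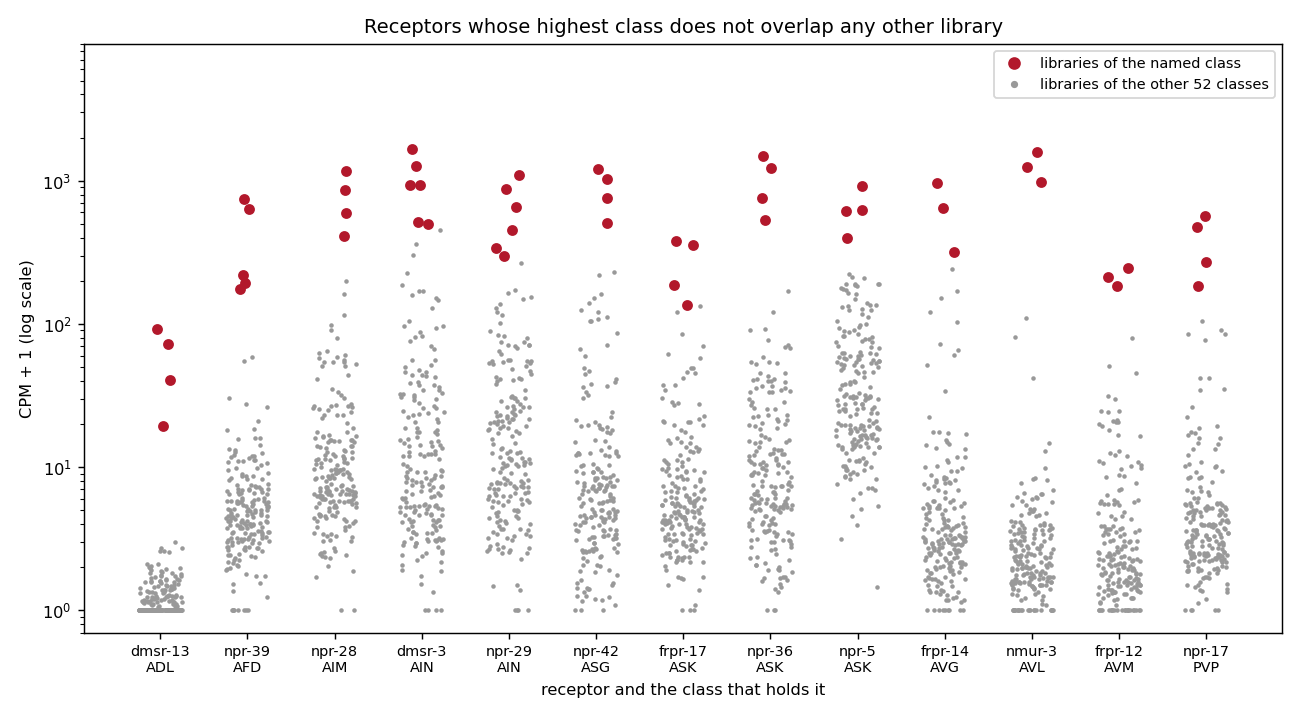
CPM + 1 in every library (log scale) for the 13 receptors that met this rule, red for the named class and grey for the libraries of the other 52 classes. All red points lie above all grey points of the same receptor, with the widest gaps for nmur-3 in AVL and dmsr-13 in ADL.

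The neuromedin U receptor relative nmur-3 (WBGene00017176, X:4466518-4469014) read 976, 1252 and 1583 CPM in AVL, a motor neuron that drives the expulsion step of defecation. The next class was DVB, its partner in that step, with 76.8 CPM ± 34.6 (SD, n = 3), and no library outside AVL exceeded 109.8 CPM. The AVL mean was 16.5 times the DVB mean, and the log2 fold change was 9.72 ± 0.22 (SE). The defecation receptor aex-2, from the list of other neuropeptide receptors, was also highest in AVL, at 1029.9 CPM ± 114 (SD, n = 3).

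ASK, a ciliated head neuron that senses amino acids and pheromones, held 3 such receptors. Libraries of ASK held 529.8, 758, 1219.6 and 1487 CPM of npr-36 (WBGene00017338, X:17359752-17363741), and the highest other library, of HSN, held 170.0. The gene overlaps F10D7.11 on the same strand, so its counts may include reads of that gene. For npr-5 (WBGene00021983, V:276985-281716), a receptor for FLP-18 peptides, the 4 libraries read 399, 609, 624 and 915 CPM against at most 220.5 CPM elsewhere, although npr-5 was one of the broadest members. For frpr-17 (WBGene00011765, X:14406117-14411258) they read 134.8, 186.8, 352 and 381 CPM against at most 133, so the gap there was narrow.

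Other sensory classes held 1 such receptor each. In the thermosensory neuron AFD npr-39 (WBGene00010179, V:10067069-10069440) read 174.1, 192.8, 218.7, 634 and 743 CPM, and no other library exceeded 57.7. In ASG npr-42 (WBGene00015299, II:4276202-4279268) read 508, 750.4, 1019 and 1209 CPM, against at most 229 in RIM. In ADL, a nociceptive and pheromone-sensing neuron, dmsr-13 (WBGene00020524, V:6817890-6819912) read 18.4, 39.8, 71.7 and 91.2 CPM against at most 2.01 elsewhere. In the touch neuron AVM frpr-12 (WBGene00019445, V:8902997-8905510) read 183.3, 210.3 and 244 CPM, and the next class was the other sorted touch neuron, PVM, with 44.1 and 79 CPM. The exons of npr-39 and frpr-17 overlap nhr-192 and fbxa-179 on the other strand, and the strand setting of the counting is not given in the sources used here.

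Among interneurons, dmsr-3 (WBGene00012993, II:13340645-13356192) read from 494 to 1654 CPM in the 6 libraries of AIN, with a median of 927, and no library outside AIN exceeded 451 CPM. In the same neuron npr-29 (WBGene00013848, III:9208236-9215467) read from 297 to 1098 CPM, with a median of 549.8, against at most 267 in DVC. AIM libraries held 409, 598, 857 and 1176 CPM of npr-28 (WBGene00018886, X:8348534-8351084), against at most 197.3 in AVL. In AVG frpr-14 (WBGene00019496, II:650955-654133) read 315, 641 and 963 CPM, and the highest other library, of DVC, read 239. In PVP npr-17 (WBGene00015559, III:7990715-7996453), an opioid-receptor relative, read 184.4, 269.8, 471 and 562 CPM, and the highest other library, of AIN, read 103.8. PVP also held 52.3 CPM ± 32.9 (SD, n = 4) of its ligand gene nlp-24, whose highest class was PVQ.

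The highest level of any member was that of npr-34 (WBGene00013187, II:14734405-14739243), which reached 1443, 2870.5, 3374 and 3837 CPM in ASER, the right of the paired salt-sensing ASE neurons. Its left partner ASEL had 1561 CPM ± 161.4 (SD, n = 3), with a highest library of 1744, so the libraries of the 2 neurons overlapped. AFD followed with 1404 ± 172.7 (n = 5). Per kilobase npr-34 led all receptors in 6 classes, which were AFD, ASEL, ASER, AWC, BAG and RIA, and it made up 45.3% of the summed receptor CPM per kilobase in ASEL and 39.4% in ASER. Leaders in 4 classes each were dmsr-7, in AVK, RIC, RMD and SMD, npr-2, in AIM, I5, PVD and PVQ, npr-23, in IL1, OLQ, PVM and VC, and npr-5, in DA, DVB, PVC and RME. All these leads are those of class means, and whether they exceed the spread between libraries was not tested. Some are uncertain. The SD between libraries was larger than the class mean for npr-34 in RIA and for npr-2 in PVQ. In OLQ the mean of npr-23 per kilobase was only slightly above that of npr-3.

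The receptors for FLP-18 and related peptides differed in breadth. The oxygen and aggregation receptor npr-1 read 31.6, 94.6, 99.4 and 150.3 CPM in ASER, its highest class, and overlapped ASG at 85 CPM ± 28.3 (SD, n = 4). It reached 10 CPM in 6 classes. By contrast npr-4 reached 10 CPM in 33 classes and npr-5 in 49. The highest class of npr-4 was AFD, at 129.3 CPM ± 79.6 (SD, n = 5) with a lowest library of 33.3 and a median of 117, overlapping AIN at 122.4 ± 63 (n = 6). Their ligand gene flp-18 was highest in AVA, at 1495 CPM ± 560.0 (SD, n = 6), where npr-1 was at 1.31 ± 0.557 CPM, npr-4 at 20.2 ± 7.16 and npr-5 at 15.1 ± 5.6.

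The FLP-15 receptor npr-3 was highest in AIN, from 271 to 1155 CPM with a median of 564, and overlapped ADL, the next class. The AIN interneuron held 13.5 CPM ± 3.89 (SD, n = 6) of flp-15, whose highest class was PHA. For npr-11, a receptor for NLP-1 and FLP-34, ASER read 141.5, 300.3, 349 and 376 CPM. Both its ligand genes were highest in AIN, flp-34 at 456 CPM ± 191.04 (SD, n = 6) and nlp-1 at 1041 ± 419.5, where npr-11 was at 2.98 ± 1.95 CPM. The FLP-7 and FLP-11 receptor npr-22 read 50.6, 74.6, 94 and 124 CPM in ASK, and reached 10 CPM in 6 classes. For npr-2 the libraries read 284, 322, 402 and 1252 CPM in AIM, and overlapped those of AIN and PVQ. The galanin receptor relative npr-9 was low throughout, with 7.87, 37.4 and 52.4 CPM in CAN, its highest class, and its exons overlap gcy-9 on the other strand.

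Cholecystokinin-type receptors were broad. In AWB ckr-1 read 13.9, 193.1, 433, 466 and 869 CPM, and the lowest of these lay below the next class, RME, at 109.6 CPM ± 60.4 (SD, n = 3). The tail interneuron DVC read 66.6, 265, 423 and 539.6 CPM of ckr-2, and overlapped ASG. DVC was also the highest class of nlp-12, the gene of their peptide ligand, at 65.7 CPM ± 57.2 (SD, n = 4). This was 1 of 2 cases, over 21 listed receptor and ligand combinations of 16 receptors, in which both genes had the same highest class. The other was nmur-1 with capa-1, a neuromedin U-type peptide gene: ASG held 85.9, 89.5, 101 and 259.6 CPM of nmur-1 and 9006 CPM ± 6041 (SD, n = 4) of capa-1.

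The tachykinin receptor gene tkr-1 read from 150.4 to 459.6 CPM in AIN, with a median of 263, and overlapped ASK; slc-17.2 overlaps it on the other strand. Its ligand gene nlp-58 was at 5.93 CPM ± 2.64 (SD, n = 6) in AIN. The related tkr-3 was highest in the command interneuron AVA, from 60.5 to 140.99 CPM with a median of 90.5, and VB followed at 23.6 ± 27.5 (n = 4). The gonadotropin-type receptor gnrr-1 read 5.49, 36.3, 61.3 and 96.8 CPM in DA and overlapped AIN. In its family gnrr-5 was the most abundant per kilobase, from 182.6 to 526 CPM in AIN with a median of 286. The largest ratio of the highest class to the next in the family was that of gnrr-3, 4.22, with 17.7, 20.6, 41.5, 49.1 and 123.1 CPM in AFD and 11.9 ± 12.5 (SD, n = 4) in PVQ, where the highest library, at 29.1 CPM, overlapped AFD. For sprr-2, which binds a myoinhibitory-type peptide, ASER read 127.6, 131.6, 161.4 and 214.5 CPM, and sprr-1 read from 297 to 863 CPM in AIN with a median of 515, overlapping AIY.

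The frpr and dmsr genes with known ligands followed. For frpr-4, a receptor for the sleep peptides of flp-13, DVC read 11.2, 50.7, 57.7 and 104.1 CPM. For dmsr-1, another FLP-13 receptor, ASK read 123.04, 140.9, 312 and 322 CPM and overlapped AIN. The ligand gene flp-13 was highest in I5, at 16004 CPM ± 6299 (SD, n = 4), where dmsr-1 was at 16.3 ± 6.26 CPM and frpr-4 at 1.6 ± 1.11. In AIN frpr-16, which had the largest ratio of highest to next class among the frpr genes, read from 77.2 to 439.8 CPM with a median of 250.4, and its lowest library lay below the highest of DVC, at 85.5. The FLP-20 receptor frpr-3 read from 78.6 to 246 CPM in AIN with a median of 162.3, while flp-20 was highest in AVM. The FLP-2 receptor frpr-18 read 176.1, 499.8, 559, 597 and 735 CPM in SMB, and its lowest library lay below the highest of AWB, at 397. For dmsr-7 the highest class was SMD, with 118.05, 167.1, 321 and 436 CPM, overlapping RIC.

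Several receptor genes that lie side by side on chromosome V had the same highest class. In 1 run it was ADL for 5 of 8 dmsr genes, and in another it was AVM for 2 of 3 frpr genes. Over 30736 bases (WBcel235 V:6798151-6828886) 8 dmsr genes lie on 1 strand in the order dmsr-9, dmsr-10, dmsr-11, dmsr-12, dmsr-16, dmsr-14, dmsr-13 and dmsr-15, among 9 protein-coding genes in all. In ADL dmsr-11 read 6.54, 24.9, 105.8 and 124 CPM, and no library of another class exceeded 1.57. The values of dmsr-10 in ADL were 3.36, 9.64, 26.6 and 43.7 CPM, against at most 2.07 elsewhere. Those of dmsr-14 were 3.36, 8.44, 12.3 and 21.2 CPM, against at most 1.59. All libraries of ADL therefore lay above all others for dmsr-10, dmsr-11, dmsr-13 and dmsr-14, and dmsr-10, dmsr-11 and dmsr-14 fell short of the 13 above because 1 or more ADL libraries held less than 10 CPM.

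For dmsr-9, dmsr-10, dmsr-11, dmsr-13 and dmsr-14 the 2 ADL libraries with the higher pan-neuronal sums, given above, were also the higher 2. Over the 53 class means of log2(CPM + 1), dmsr-11 correlated with dmsr-13 at 0.96 and dmsr-10 with dmsr-11 at 0.946. The neuromedin receptor nmur-2 was highest in ADL too, with 5.66, 13.1, 39.3 and 46 CPM. ADL was the highest class of all of these, so the points of the other classes lie low in each correlation. Within the run dmsr-9 was broader, at 39.4 CPM in ASER beside ADL libraries of 15.9 to 135.2 CPM, and dmsr-12, dmsr-15 and dmsr-16 stayed at or under 2.54 CPM in every class mean. How reads that match several of these neighbouring copies were counted is not given in the sources used here, so the split between them is uncertain.

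A second run on chromosome V holds frpr-13, frpr-12 and frpr-11 (V:8899056-8909444, 10389 bases, no other protein-coding gene). AVM was the highest class of frpr-12 and of frpr-11, for which it read 44.6, 50.5 and 67.2 CPM, while frpr-13 was highest in DVC with 29.1, 77.7, 230.2 and 245 CPM. The neighbours frpr-13 and frpr-12 correlated at 0.557 across classes, and frpr-12 and frpr-11 at 0.579, both above 0.425, the 95th percentile over all pairs of members. On the X chromosome gnrr-6 and gnrr-7, 4523 bases apart, correlated at 0.161 and were highest in AFD and ASG. The X chromosome held 31 members, or 32% of them, against 13.7% of annotated protein-coding genes, and chromosome I held 5, or 5.15% against 14.4%.

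In ciliated sensory neurons 4 receptors, frpr-19, npr-34, npr-31 and dmsr-9, were called higher than in other neurons by the fit given here and by each of 9 refits, and 4 more were called by that fit and some of the refits. These refits changed the filter, the pseudocount or the libraries, and other alternatives run are not counted among them. How many of all genes were called in each of the 9 was not counted, so the 4 have no share beside them. Single refits called 2.52% to 5.67% of all genes higher. Most class means of dmsr-9 were very low, as given below. The 17 ciliated sensory classes were set against the other 36 with the class as the unit (limma on class means of log2(CPM + 1)). Of 95 receptors 8 were called higher, which is 8.42% against 5.16% of all genes, and 0 were called lower, against 1.25%. Before adjustment 21 receptors, or 22.1%, had p under 0.05, near the 19.3% of all genes. The difference was positive for 69 of the 95 receptors and for 45.2% of all genes, and its median was 0.32 over the receptors and -0.03 over all genes. The other 4 of the 8 were npr-26, gnrr-6, npr-8 and npr-18. In each of 4 refits 5 were called, with npr-8 and npr-18 lost in all of these, and the share of receptors called was then near that of all genes in 3 of them. Without the tenth of libraries highest in non-neuronal genes npr-26 was the other one lost (log2 differences of 1.1, 1.2 and 1.51 for npr-8, npr-18 and npr-26), and 5.26% of receptors were called against 4.52% of all genes. With no filter on low counts, with a pseudocount of 5 and without the first library of each class it was gnrr-6 (log2 differences of 0.96, 0.47 and 0.99). The shares called were 5.15% of receptors against 2.52% of all genes with no filter, 5.26% against 4.58% with the pseudocount of 5, and 5.26% against 4.29% without the first libraries.

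**Figure D4:**
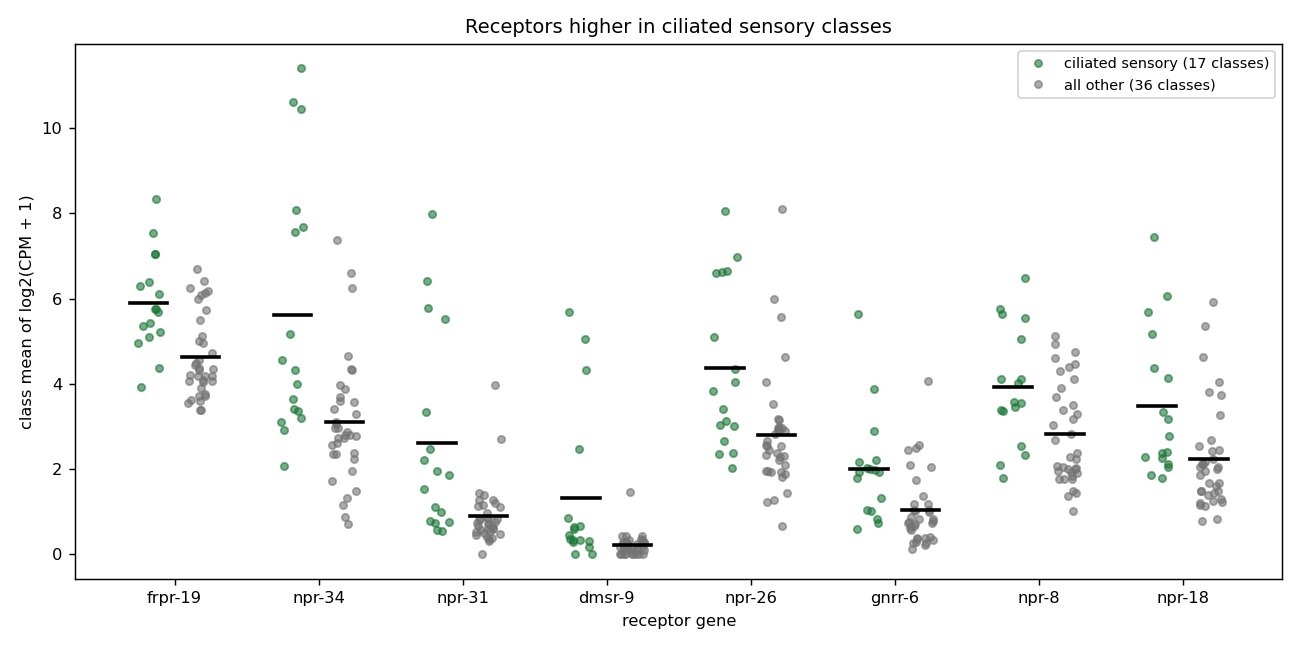
Class means of log2(CPM + 1) of the 8 receptors called higher in ciliated sensory classes, with 1 point per class (green ciliated sensory, 17 classes; grey all other, 36 classes) and black bars for the mean of each set. The sets overlap for every receptor, and the high green points of npr-34 are ASER, ASEL and AFD.

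Of these, frpr-19 was the most even. Its class means ran from 14.3 CPM in OLL through a median of 54.2 to 393 in ADL among the ciliated classes, and from 9.67 in NSM through a median of 20.5 to 115.5 in PVD among the others. The log2 difference was 1.27 ± 0.29 (SE; limma adjusted p = 0.00244). It was at or above 10 CPM in 17 of 17 ciliated classes and in 34 of the other 36.

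For npr-34 the ciliated classes ran from 3.57 CPM in ADL through a median of 20.5 to 2881 in ASER, and the others from 1.03 in PVP through 7.45 to 192.97 in RIC. The log2 difference was 2.52 ± 0.59 (SE; limma adjusted p = 0.00291). The receptor gene npr-31 ran from 0.474 to 281 CPM in ciliated classes, with a median of 3.02, and up to 19.2 CPM in the others, with a log2 difference of 1.72 ± 0.41 (SE; limma adjusted p = 0.0035). It reached 10 CPM in 5 ciliated classes and 2 others. Of the remaining 5, npr-26 had the largest difference at 1.55 ± 0.45 (SE), and the adjusted p of all 5 lay between 0.0127 and 0.0453. For dmsr-9 the median class was at 0.379 CPM among ciliated classes and at 0.143 CPM among the others. It reached 10 CPM in 3 ciliated classes and 0 others, so few classes carried its difference. The summed non-neuronal genes had a median over classes of 3349 CPM in ciliated classes, 4042 in interneurons and 4785 in motor neurons, and the pan-neuronal genes 7203, 7124 and 4624. The part of these in the difference was not tested.

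Between motor and interneuron classes no receptor was called. The contrast of 14 motor with 18 interneuron classes called 0 of 95 receptors higher, against 0.0049% of all genes, and 0 lower, against 0%, by limma with Benjamini-Hochberg adjustment. At an unadjusted p under 0.05 there were 9 receptors, or 9.47%, against 5.99% of all genes. The smallest p belonged to frpr-1, with a log2 difference of -1.06 ± 0.38 (SE; limma adjusted p = 0.701). The difference was positive for 33 of 95 receptors and for 55.7% of all genes, with a median of -0.19 over receptors and 0.02 over all genes.

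Closely related classes were then compared in fits that held no other class. Of the 5 pairs, 4 had receptors called. Of 84 receptors tested in at least 1 pair 62, or 73.8%, were called in at least 1, against 25.3% of the genes so tested. In at least 2 pairs 26 were called, or 31%, against 5.33%, and in at least 3 pairs 6, or 7.14%, against 0.684%. Called in 3 pairs were dmsr-3, frpr-2, frpr-7, npr-4 and npr-40, and in 4 pairs frpr-9. The CPM values below are scaled over the whole table, and the fold changes are those of the pair's own edgeR fit.

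**Figure D5:**
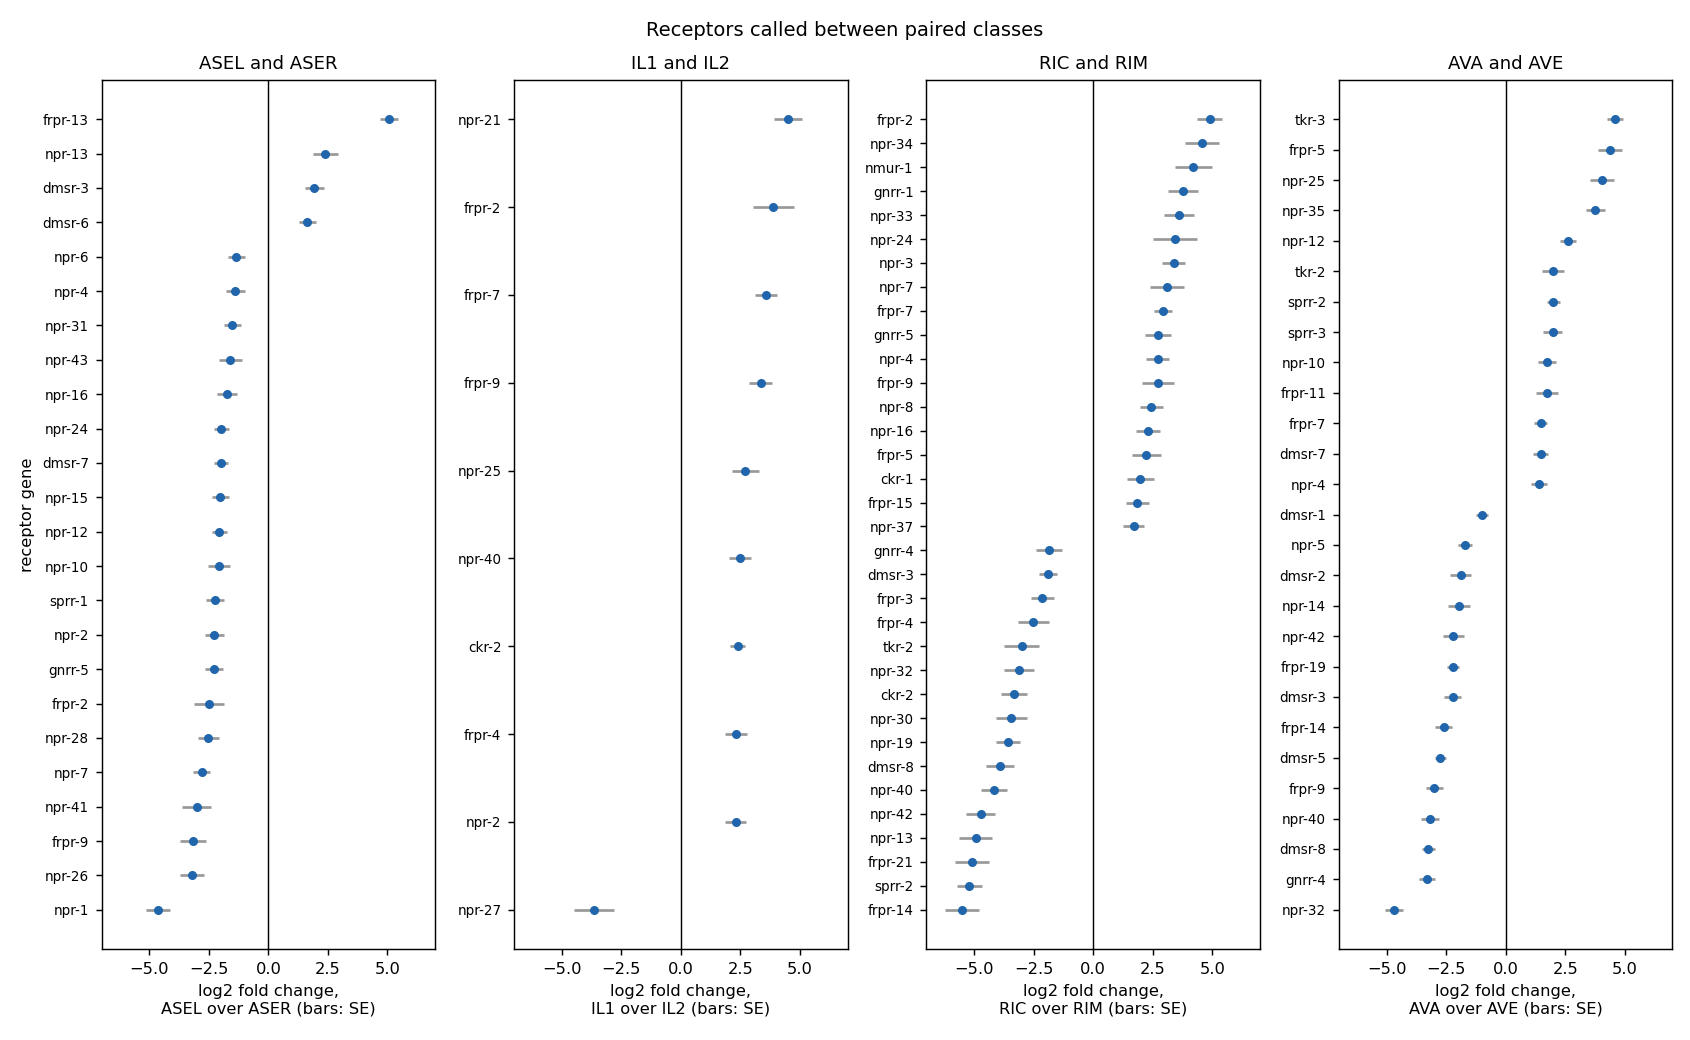
Log2 fold change with its standard error for every receptor called at an adjusted p under 0.05 for AVA against AVE (27 receptors), RIC against RIM (34), ASEL against ASER (24) and IL1 against IL2 (10), positive where the first class is higher. For ASEL and ASER most points lie on the ASER side, and for IL1 and IL2 all but npr-27 lie on the IL1 side.

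The left and right ASE neurons differed in 24 of 70 tested receptors, or 34.3%, against 11.4% of all genes. ASER was higher for 20 of them, against 6.12% of all genes, and ASEL for 4, against 5.27%. Libraries of ASER held 31.6, 94.6, 99.4 and 150.3 CPM of npr-1, and those of ASEL 2.31 (from 2 counts), 3.42 and 3.56, a log2 fold change of ASEL over ASER of -4.63 ± 0.52 (SE; edgeR adjusted p = 6.36e-05). In the other direction ASEL held 80.7, 102 and 117.6 CPM of frpr-13, and ASER 1.13, 3.12, 4.49 and 4.81 (log2 fold change 5.07 ± 0.39, SE; edgeR adjusted p = 2.54e-06). Neither gene overlapped between the neurons. For npr-26 ASER read 43.7 to 157.9 CPM and ASEL 2.31 (also from 2 counts) to 16.7, and for dmsr-3 ASEL read 16.7 to 45 and ASER 6.4 to 12. All 24 called receptors were free of overlap, which was not counted over all genes and so cannot be read as a trait of receptors. With all classes in 1 fit 6 were called, dmsr-3 not among them, against 1.43% of all genes, and without 1 of the ASEL libraries 15, against 5.91%. The libraries of ASEL held 6571 to 7110 CPM of pan-neuronal genes and those of ASER 6601 to 16439, and the median log2 fold change over the 70 receptors was -0.74.

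The octopamine neuron RIC and the tyramine neuron RIM differed in 34 of 75 receptors, or 45.3%, against 14.6% of all genes. RIC was higher for 18, against 7.55%, and RIM for 16, against 7.08%. RIM libraries held 28.3, 113, 140.9 and 144.8 CPM of sprr-2, and RIC libraries 2.29, 2.64, 2.72 and 3.06 (log2 fold change of RIC over RIM -5.21 ± 0.52, SE; edgeR adjusted p = 0.000451). For frpr-14 RIM read 21.3, 119.8, 150.5 and 169 CPM, and RIC 0.71 to 4.22. RIC held 14.1, 24.2, 30.8 and 40 CPM of frpr-2, and RIM 0.236, 0.783, 1.15 and 1.25, a log2 fold change of 4.89 ± 0.52 (SE; edgeR adjusted p = 0.000615); ppk-3 overlaps this gene on the other strand. For npr-34 RIC read 55.1, 214.1, 237 and 266 CPM and RIM 2.12 to 13.1. Of the 34, 5 overlapped between the classes, which was not counted over all genes. Without 1 of the RIM libraries 22 were called, against 8.57% of all genes. RIC held 7903 to 28688 CPM of pan-neuronal genes and RIM 3475 to 9629, and the median log2 fold change over the 75 receptors was 0.8.

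The command interneurons AVA and AVE, which drive backward locomotion, differed in 27 of 52 receptors, or 51.9%, against 11.5% of all genes. AVA was higher for 13, against 6.07%, and AVE for 14, against 5.42%. In AVE tkr-3 read 3.19, 4.18 and 4.36 CPM, far below the AVA range of 60.5 to 140.99 given above (log2 fold change of AVA over AVE 4.58 ± 0.33, SE; edgeR adjusted p = 6.16e-06). AVA held 44.8 to 122.9 CPM of frpr-5, with AVE at 1.28, 1.94 and 6.84. AVE held 40.7, 43.4 and 54.7 CPM of npr-32, against 0 to 2.41 in AVA (log2 fold change -4.7 ± 0.38, SE; edgeR adjusted p = 1.35e-05), and 38.3, 51.8 and 66.2 CPM of gnrr-4, against 2.5 to 8.76. Exons of npr-32 overlap short RNA genes on its own strand. Of the 27, 1 receptor, dmsr-2, overlapped between the classes, which was not counted over all genes. With all classes in 1 fit 12 were called, against 1.42% of all genes. The pan-neuronal sums were 2252 to 4778 CPM in AVA and 2257 to 2815 in AVE.

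The inner labial neurons IL1 and IL2 differed in 10 of 76 receptors, or 13.2%, against 5.79% of all genes, with 9 higher in IL1, against 3.01%, and 1 higher in IL2, against 2.78%. IL1 held 20.4, 49 and 85 CPM of npr-21, and IL2 held 0.814, 1.93, 3.34 and 3.44 (log2 fold change of IL1 over IL2 4.5 ± 0.6, SE; edgeR adjusted p = 0.0148). For frpr-2 IL1 read 6.85, 7.43 and 15.9 CPM and IL2 at most 1.15. In the other direction npr-27 read 7.56, 83.3, 127 and 128 CPM in IL2 and 5.18, 5.76 and 7.52 in IL1, so its lowest IL2 library nearly met IL1 (edgeR adjusted p = 0.0497). That library had 673 CPM of pan-neuronal genes, while the median of IL2 was 10351. Without it 46 receptors were called, or 61.3%, against 41.3% of all genes. Leaving out any of the other IL2 libraries left 0 receptors and at most 1 gene called, and leaving out each IL1 library in turn left 0, 1 and 2 receptors, with at most 0.961% of all genes. DESeq2 called 28 receptors, or 36.8%, against 18.1% of all genes.

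The GABA motor neurons DD and VD had 0 of 77 receptors called, in a comparison where 0% of all genes were called by edgeR. DESeq2 called 5 receptors, or 6.49%, against 4.44% of all genes. There were 18 receptors at an unadjusted p under 0.05 by edgeR, or 23.4%, against 14.6% of all genes, and the median log2 fold change of DD over VD was -0.32. Libraries of both classes were high in non-neuronal genes, at 5692 to 7895 CPM in DD and 6201 to 9990 in VD, and low in pan-neuronal genes, at 2263 to 3150 and 1375 to 2392.

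Of 9 other neuropeptide receptors listed outside these families, 8 were found by symbol, and 7 of these were called among the classes by the edgeR F-test, all but fshr-1, in a table where 95.5% of genes were. In the ciliated contrast 1 of the 8 was called higher, the nematocin receptor ntr-1, at a log2 difference of 1.65 (limma adjusted p = 0.015), and 0 were called lower. The pigment dispersing factor receptor pdfr-1 reached 10 CPM in 52 classes. Of 16 ligand genes 15 were found, all 15 were called among the classes, and 1, the adipokinetic-type nlp-47, was higher in ciliated classes (log2 difference 2.16, limma adjusted p = 0.00558). Over all genes 5.16% were higher in ciliated classes. In ASER, where nlp-47 was highest at 1830 CPM ± 690.4 (SD, n = 4), its receptor gnrr-1 was at 4.11 ± 1.34 CPM. In the motor contrast 0 genes of either list were called by limma.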

How the data were processed

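The deposited values were raw counts of reads per gene, which the authors made with STAR 2.7.7a, UMI-tools 1.1.4, Subread 2.0.3 and featureCounts per the submitters' processing notes. The role of each tool, the strand setting and the treatment of reads with several matches are not given in the sources used here. Gene identifiers of WormBase release 289 were matched to symbols for 44113 genes (94%), and 14 per-sample columns that no label matched were not used. Coordinates and exon overlaps came from the count table. In it 30 of the 97 receptors overlap another gene, 4 on the same strand and 27 on the other. Not all of these are marked where they are named. On the other strand ckr-2, dmsr-16, frpr-7, frpr-16, npr-21, npr-27, npr-40, sprr-1 and tkr-3 overlap a gene too. All 97 had the same start and end in the WBcel235 annotation of Ensembl release 115. Counting error bounds only the precision of low values, at 3 counts per library.

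Counts were tested with edgeR 4.0.16 (filterByExpr, TMM, quasi-likelihood) in R 4.3.3, with Benjamini-Hochberg adjustment over all genes tested. The SE of an edgeR fold change, also in the figure of class pairs, was worked back from the test. It is the size of the log2 fold change divided by the square root of the F statistic, and so is approximate. Neuron types, assigned from worm anatomy, were compared with limma 3.58.1 on class means of log2(CPM + 1). The code was tested on simulated data. Genes were named by rule: a list of receptors with a known ligand or role, the most abundant and most class-restricted member of each family, receptors set apart in 1 class, up to 2 per direction in each pair of classes, and those called between types. The receptors and lists were chosen with earlier results of these data known. Others named, such as frpr-1, the neighbours in the gene runs and those called in 3 or more pairs, were chosen after their values were seen. No pair of libraries within a class agreed within sampling noise. Alternatives covered scaling, filter, tool, pseudocount, label form, purity, ribosomal RNA and leaving out libraries.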

Additional observations from a re-analysis of the deposited data

Results flagged for a closer look

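Of 80 groups of 4 to 6 libraries looked at, 4 had 1 library far from the rest by Dixon's criterion, and chance gives about 1 in 20. For nmur-1 in ASG 1 library read 259.6 CPM and the others 85.9, 89.5 and 101 CPM. For npr-2 in AIM 1 library read 1252 CPM and the others 284, 322 and 402 CPM. The same AIM library held 6794 CPM of summed receptors and 38542 CPM of pan-neuronal genes, where the other AIM libraries held 5914 to 8665 CPM of pan-neuronal genes. In LUA 1 library held 1304 CPM of summed receptors and 7196 CPM of pan-neuronal genes, and the others held 391 to 529 CPM of receptors. The part of sort purity in these values was not tested.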

How the results depend on the processing

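All counts of receptors called among the classes stayed at 95 or 96 under the alternatives tried, 1 of which held 46 of the 53 classes. In the main fit 95.5% of all genes were called, so these counts could hardly fall and do not measure robustness. The share of all genes was not counted for these alternatives. Against all other libraries as 1 group, limma-voom called 481 receptor and class combinations higher (9.55%, against 3.93% of all gene and class combinations) and 83 lower (1.65% against 0.974%); by limma-voom against the mean of the other classes these were 866 (17.2% against 8.34%) and 459 (9.12% against 5.39%). Leaving out the library of 1 rank (the first to the sixth by label number) from every class at once gave 718 to 853 (14.3% to 16.9%, against 6.05% to 8.22%) and 292 to 430 (5.8% to 8.54%, against 3.07% to 5.19%). Without the tenth of libraries highest in non-neuronal genes the 8 receptors higher in ciliated classes became 5, against 4.52% of all genes. There were also 5 with no filter on low counts, against 2.52%, and with a pseudocount of 5, against 4.58%. Without the libraries of 1 rank there were 5 to 9, against 4.1% to 5.67% of all genes, and 0 to 1 were lower. Receptors set apart in 1 class numbered 13 to 28 without the libraries of 1 rank (13.7% to 29.5%, against 6.27% to 10.8% of all genes). For ASEL and ASER the count was 6 with all classes in 1 fit (6.32%, against 1.43% of all genes). Without 1 library it was 15 to 29 (20.8% to 41.4%, against 5.91% to 18.3%). For AVA and AVE it was 12 with all classes in 1 fit (12.6%, against 1.42% of all genes). For IL1 and IL2 it was 21 with all classes in 1 fit (22.1%, against 8.13% of all genes) and 28 by DESeq2 (36.8% against 18.1%). Without 1 library it was 0 to 46, against 0% to 41.3% of all genes. For DD and VD it was 2 with no filter (2.08%, against 0.284% of all genes) and 5 by DESeq2 (6.49% against 4.44%). For RIC and RIM it was 22 to 48 without 1 library (28.4% to 63.2%, against 7.93% to 23.7% of all genes). Except for the part that fewer samples give by construction, the cause was not tested.

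Of 2189 recomputed values of named receptors, 2152 kept their side of the threshold or stayed within the spread between libraries, and 0 called values changed sign. For class means in CPM that spread was the SD of the class. Leaving out 1 library moves a mean by less than this SD, except through rescaling. Those values could therefore hardly fail, and they do not measure robustness. At least 42 of 48 named receptors kept their highest class under each alternative. Leaving out ribosomal RNA multiplied the class CPM of named receptors by 1.32 to 1.53. For the class contrasts, the runs with no filter, without ribosomal RNA and without the libraries of 1 rank were not run in edgeR; limma-voom took their place, chosen after seeing the data. No paired analysis was possible because the replicate numbers are unique to each library.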
